A study of Mus musculus with 31 samples.

Results

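The comparison described here set long-term hematopoietic stem cell (HSC) libraries from mice given β-glucan against those from mice given PBS, 28 days after the injection. Its 8 libraries, 4 of each treatment, were all the HSC day 28 libraries among the 31 libraries of the series, and all of them were kept. The β-glucan group came from wild-type mice of the C57BL/6 strain at 10 weeks of age, which had received 1 mg of β-glucan in PBS by the intraperitoneal route. The PBS group came from mice of the same strain and age that received PBS alone. The sources used here do not say whether a library came from 1 mouse or from a pool, so the p-values below measure the spread between libraries. Other sets of the series, used only beside these values, were multipotent progenitors (MPP) at day 28 (4 and 4 libraries), HSC at day 7 (3 and 4), and HSC from mice that also received 150 mg/kg of 5-fluorouracil (5-FU) on day 7 (4 and 4).

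β-glucan is a polysaccharide of fungal cell walls that is recognised by dectin-1 (Clec7a), a receptor of myeloid cells. A single exposure can alter how myeloid cells and their bone marrow progenitors respond to a later challenge, which is called trained immunity, and the comparison asks what differs in HSC 4 weeks after the exposure. HSC are rare, mostly quiescent cells that maintain all blood lineages. They keep protein synthesis low and are sensitive to unfolded protein in the endoplasmic reticulum (ER), and interferons drive them into cycle.

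The 8 libraries held 29751430 to 39485556 counts on genes, so sampling error is small for all but the lowest genes. The sort label was checked on marker genes, on a scale set over the HSC and MPP libraries together. Slamf1, the CD150 antigen of HSC, was at 3.69 to 8.03 CPM (counts scaled to a common library total) in the 8 HSC libraries against 0.908 to 1.88 CPM in the 8 MPP libraries. Flt3, Cd34 and Cd48, which mark progenitors, and Ly6a were lower in HSC than in MPP without overlap, and Mecom was higher. Kit, Procr, Meis1 and Hlf overlapped between the cell types. The HSC libraries also held much RNA of mature cells. Haemoglobin genes took 14.8 to 16.7% of counts in β-glucan libraries and 17.1 to 18.2% in PBS libraries. A list of 17 late neutrophil genes took 6.95 to 7.95% in β-glucan libraries and 7.97 to 8.81% in PBS libraries, while 30 genes of long-term HSC took 0.0848 to 0.0961% and 0.0822 to 0.132%. In such RNA, fewer cells of a type and less RNA per cell cannot be told apart.

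Few genes passed the test over all genes. Of 16025 genes tested, edgeR's quasi-likelihood test called 6 at an adjusted p under 0.05, or 0.0374%, and all 6 were higher after β-glucan. They were 2 immunoglobulin light chain segments, Igkv4-91 and Igkv17-127, the ER chaperone cofactor Sdf2l1, the membrane protein Tspan7, the lipase Lipg and the protease Adamts5. None was called lower by edgeR, though 1415 genes (8.83%) were lower at an unadjusted p under 0.05 and 1314 (8.2%) higher, 17.0% in all. Without β-glucan library 4 those counts were 891 and 786. At an adjusted p under 0.1 the counts were 48 higher (0.3%) and 21 lower (0.131%), or 0.431% together. The groups did not overlap for 9.11% of genes, 3.82% with β-glucan higher and 5.29% with β-glucan lower. The DESeq2 Wald test called 589 genes (3.68%), 295 higher (1.84%) and 294 lower (1.83%), and limma voom called 598 (3.73%), 259 higher (1.62%) and 339 lower (2.12%). Below, called and adjusted p refer to edgeR's test on the 8 libraries unless another test or fit is named.

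The number of calls moved with each library left out. The count was 3, 3, 28 and 3 without β-glucan library 1, 2, 3 and 4, and 2, 51, 1 and 1 without PBS library 1, 2, 3 and 4. Without both PBS library 2 and β-glucan library 3 it was 669 of 16103 genes (4.15%), 376 higher (2.33%) and 293 lower (1.82%). Igkv4-91 was called under all 17 alternatives tried, Igkv17-127 under 14 of 17, Sdf2l1 under 13 of 17, Lipg under 11 of 17, Tspan7 under 10 of 16 and Adamts5 under 9 of 16. Every loss of a call among these came with 1 library left out. Log2 fold changes of the 6 genes stayed positive under all of these alternatives.

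Igkv4-91 and Igkv17-127 are variable segments of the kappa light chain, part of the antibody that a B cell or plasma cell makes. Both lie on chromosome 6 of mm10, Igkv4-91 at 68768555-68769103 on the minus strand and Igkv17-127 at 67861153-67861659 on the plus strand. Igkv4-91 had 18.7, 31.2, 22.2 and 34.9 CPM in β-glucan libraries, against 1.22, 2.71, 0.901 and 1.67 CPM in PBS libraries. Its lowest β-glucan library was above its highest PBS library, and it rose by 4.04 ± 0.31 on the log2 scale (standard error, adjusted p = 0.000519). Igkv17-127 had 75.0, 56.9, 28.9 and 17.8 CPM in β-glucan libraries, against 3.52, 5.00, 3.70 and 5.10 CPM in PBS libraries. It spread widely among the β-glucan libraries without overlapping the PBS libraries, with a rise of 3.37 ± 0.39 (log2, adjusted p = 0.0201). Segments of this family resemble each other, and the sources used here do not say how reads were shared between them.

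Immunoglobulin segments as a family did not lean to one side. Of 348 variable segments in the table, 156 passed the count filter, a list drawn up after values were seen. At an unadjusted p under 0.05, 17 were higher and 22 lower, with a median log2 fold change of -0.17, and their fold changes ran from -4.88 to 4.04. Their summed level was 875, 1102, 886 and 1062 CPM in β-glucan libraries and 878, 1442, 838 and 995 CPM in PBS libraries, which overlapped, and the median was 0.13 without PBS library 2. Plasma cell genes were mixed too. Of 19 tested, 3 were higher and 5 lower at an unadjusted p under 0.05. Irf4, a transcription factor of plasma cells, had 8.15 to 10.1 CPM in β-glucan libraries against 11.8 to 14.9 CPM in PBS libraries (log2 fold change -0.58 ± 0.12, adjusted p = 0.0975), and Mzb1, an ER protein of antibody secreting cells, differed by -0.46 ± 0.09 (adjusted p = 0.0978).

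Sdf2l1, a cofactor of the ER chaperone BiP that is induced by unfolded protein, lies on chromosome 16 at 17130138-17132383, minus strand. It had 116, 137, 125 and 194 CPM in β-glucan libraries, against 73.7, 70.9, 63.6 and 62.5 CPM in PBS libraries. All β-glucan libraries were above all PBS libraries, with β-glucan library 4 the highest. Sdf2l1 rose by 1.08 ± 0.14 (log2, adjusted p = 0.0392). The adjusted p was 0.0731, 0.134, 0.0821 and 0.179 without β-glucan library 2 and PBS library 1, 3 and 4, and under 0.05 under the other alternatives.

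Lipg encodes endothelial lipase, which cleaves phospholipids of high-density lipoprotein, and lies on chromosome 18. It had 14.4, 15.4, 13.9 and 17.4 CPM in β-glucan libraries, against 4.51, 8.44, 6.03 and 4.53 CPM in PBS libraries. The β-glucan libraries lay close together and PBS library 2 was the nearest to them, and Lipg rose by 1.38 ± 0.19 (log2, adjusted p = 0.0392). Tspan7, a tetraspanin of the cell membrane, lies on chromosome X at 10485158-10596605, plus strand. It had 4.16, 3.17, 3.27 and 4.70 CPM in β-glucan libraries, against 1.32, 1.40, 0.963 and 1.67 CPM in PBS libraries, and rose by 1.51 ± 0.21 (log2, adjusted p = 0.0392). Adamts5, a secreted protease that cleaves aggrecan, lies on chromosome 16 at 85858170-85901125, minus strand. It had 2.75, 2.24, 2.72 and 3.59 CPM in β-glucan libraries, against 0.773, 0.989, 0.746 and 1.30 CPM in PBS libraries, and rose by 1.57 ± 0.22 (log2, adjusted p = 0.049). Tspan7 and Adamts5 did not overlap between treatments, at levels of a few CPM.

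**Figure D1:**
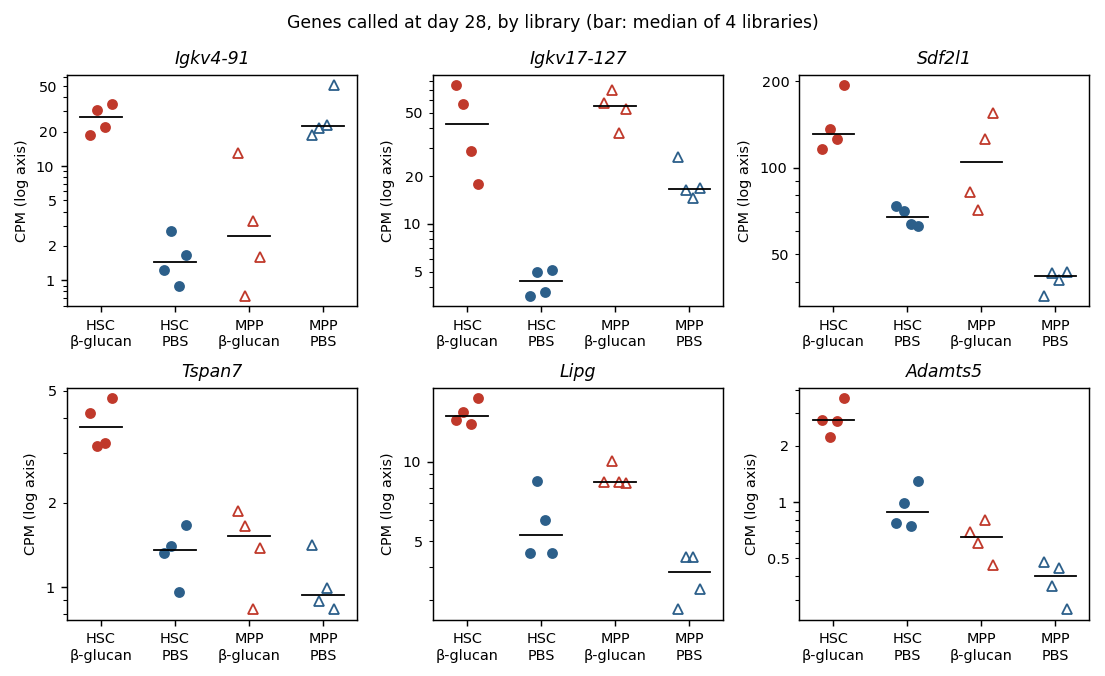
Level of the 6 called genes in every day 28 library, in CPM on a log axis, for β-glucan and PBS libraries of HSC (filled circles) and of MPP (open triangles), with the median of 4 libraries as a bar. In HSC no β-glucan library overlaps a PBS library for any of the 6 genes, whereas in MPP the β-glucan libraries of Igkv4-91 lie below the PBS libraries.

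Another 11 genes shared an adjusted p of 0.0545, just outside the threshold, and their 2 groups did not overlap. Of these, 8 were higher and 3 lower after β-glucan. The acute phase protein Saa3 had 0.938 to 1.49 CPM in β-glucan libraries against 0.299 to 0.467 CPM in PBS libraries. Prtn3, a neutrophil serine protease made in promyelocytes, had 957, 923, 783 and 990 CPM in β-glucan libraries against 606, 605, 589 and 651 CPM in PBS libraries (0.58 ± 0.09). Manf, an ER resident protein secreted under ER stress, had 218, 227, 184 and 212 CPM in β-glucan libraries against 139, 152, 137 and 154 CPM in PBS libraries (0.53 ± 0.08). The matrix genes Prelp and Col6a1 and the endothelial receptor Gpr182 had log2 fold changes of 1.00 ± 0.15, 1.14 ± 0.18 and 1.45 ± 0.23, the epidermal protein gene Dmkn 0.53 ± 0.09 and C1qtnf12, which encodes an adipokine, 0.96 ± 0.16. C1qtnf12 was highest in β-glucan libraries 3 and 4 of both HSC and MPP, as were the genes given with the closing observations. The part of that pattern in its rise was not tested. The 3 lower ones were Gbp2, an interferon-induced GTPase, the surrogate light chain gene Vpreb1 of pre-B cells, and Gcnt2, which branches cell surface glycans. Vpreb1 had 7.25, 7.95, 7.80 and 6.93 CPM in β-glucan libraries against 11.6, 12.1, 11.2 and 11.8 CPM in PBS libraries (-0.64 ± 0.10), and Gcnt2 52.1, 53.5, 57.8 and 52.0 CPM in β-glucan libraries against 85.9, 70.7, 71.5 and 84.7 CPM in PBS libraries (-0.54 ± 0.09).

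Genes of ER protein folding were mostly higher after β-glucan. Of 29 list members tested, 23 had a positive log2 fold change, edgeR called Sdf2l1 among them, and 14 were higher and 0 lower at an unadjusted p under 0.05, against 8.2% and 8.83% of all genes. The list median was 0.18 and that of all genes tested -0.02. Summed over the list, β-glucan libraries had 6566, 7229, 7033 and 7374 CPM and PBS libraries 5884, 6952, 5667 and 6008 CPM, so that PBS library 2 overlapped the β-glucan group. The number higher at that p was 9 without β-glucan library 2 and 8 without β-glucan library 4. In a fit that took the spread from all 16 HSC and MPP libraries of day 28, 6 members were called higher and none lower, where 4.13% of 16691 genes were called, 1.94% higher and 2.19% lower. That fit pools a spread that differed between the cell types (biological coefficient of variation 0.170 in HSC and 0.103 in MPP). The DESeq2 Wald test on the 8 HSC libraries called 5 members higher and 0 lower, and limma voom 6 and 0. Of all genes, DESeq2 called 1.84% higher and 1.83% lower, and limma voom 1.62% and 2.12%.

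The ATF6 and XBP1 branches of the unfolded protein response raise chaperones and folding enzymes. Creld2, an ER disulfide isomerase, had 55.3, 57.4, 73.3 and 109 CPM in β-glucan libraries against 36.2, 41.1, 34.7 and 35.2 CPM in PBS libraries, a log2 fold change of 1.00 ± 0.19 (adjusted p = 0.092). Its lowest β-glucan library was above all PBS libraries, and β-glucan library 4 was the highest. In MPP it had 51.9, 46.8, 73.1 and 89.4 CPM in β-glucan libraries against 27.5, 32.3, 31.4 and 30.8 CPM in PBS libraries. There too β-glucan library 4 was the highest, as for the genes given with the closing observations. The part of that pattern in the values of Creld2 was not tested. Dnajb11, an ER cochaperone of BiP, had 87.4, 94.6, 86.3 and 101 CPM in β-glucan libraries against 75.2, 79.8, 67.3 and 81.6 CPM in PBS libraries (0.28 ± 0.09, adjusted p = 0.16). Xbp1, the transcription factor itself, and Hspa5, which encodes BiP, differed by 0.51 ± 0.15 and 0.31 ± 0.11 on the log2 scale, and neither passed the adjusted test. Of the PERK and ATF4 branch, Atf4, Ddit3 and Trib3 had log2 fold changes of 0.05, 0.08 and -0.11. These values do not stand for the whole branch, since Asns and Chac1, also in the list, are not among the negative members named next. Calr, Dnajb9, Atf6, Trib3, Hyou1 and Herpud1 had negative values, and none of the 6 passed an unadjusted p of 0.05.

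The promoters of these genes were searched for the ER stress element, spelt CCAAT and CCACG with any 9 bases between them, on both strands of the 250 bases before and 50 bases after the gene start (RefSeq, GRCm38.p6). It was present in 39 of 32851 promoters (0.119%) and in 8 of 24 list genes with a promoter in that set. The 8 genes with a match had a median log2 fold change of 0.26, with 5 higher at an unadjusted p under 0.05, and the 16 without had a median of 0.17, with 7 higher. Outside the list, 9 tested genes with a match had 0 higher and 0 lower at that p and a median of 0.06. A match is a run of letters and does not show that a factor was bound. The promoter of Creld2 is shown because it is the matched member with the smallest p. It is chr15:88819396-88819645, plus strand, the 250 bases before the start, with the element in capitals on the opposite strand, 126 to 108 bases before the start.
Creld2: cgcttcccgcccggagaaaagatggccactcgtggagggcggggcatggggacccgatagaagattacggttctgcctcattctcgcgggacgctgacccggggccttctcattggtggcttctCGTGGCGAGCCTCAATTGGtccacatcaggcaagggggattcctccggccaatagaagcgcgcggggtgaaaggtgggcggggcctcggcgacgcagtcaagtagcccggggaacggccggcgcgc

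Interferon response genes mostly had negative log2 fold changes after β-glucan, and edgeR on the 8 libraries called none of them. Of 29 interferon gamma response genes tested, 23 had negative log2 fold changes, 17 were lower and 0 higher at an unadjusted p under 0.05, and the list median was -0.31. Of 35 type I interferon genes, 31 were negative, 19 were lower and 1 was higher at that p, and the median was -0.25. The groups did not overlap for 11 members of the first list and 16 of the second in the lower direction, where 5.29% of all genes did so. Summed levels of the first list overlapped, at 1481 to 1637 CPM in β-glucan libraries against 1610 to 1763 CPM in PBS libraries. Those of the second did not, at 1501 to 1569.5 CPM in β-glucan libraries against 1639 to 1966 CPM in PBS libraries. The fit of 16 libraries called 13 and 11 members of the lists lower and none higher, against 2.19% of all genes called lower there. On the 8 HSC libraries, the DESeq2 Wald test called 11 interferon gamma response genes lower and 0 higher, and 8 type I interferon genes lower and 1 higher. There limma voom called 9 and 6 members of the lists lower and none higher. Of all genes, DESeq2 called 1.83% lower and 1.84% higher, and limma voom 2.12% and 1.62%.

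Guanylate binding proteins, GTPases that attack vacuoles of intracellular microbes, were among the members with the smallest p. Gbp2 had 16.03, 16.3, 16.7 and 14.3 CPM in β-glucan libraries against 23.7, 21.9, 25.9 and 24.0 CPM in PBS libraries, a log2 fold change of -0.59 ± 0.09. Gbp9 had 3.03, 4.21, 4.39 and 3.62 CPM in β-glucan libraries against 6.11, 7.36, 6.03 and 6.47 CPM in PBS libraries (-0.77 ± 0.15, adjusted p = 0.092). Gbp3 and Iigp1, an immunity-related GTPase, differed by -0.41 ± 0.09 and -0.61 ± 0.12. All 4 β-glucan libraries were below all 4 PBS libraries for each of these genes.

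Type I interferon genes with the smallest p included Oasl2, of the oligoadenylate synthetase family that senses viral RNA. It had 38.4, 43.4, 42.9 and 39.3 CPM in β-glucan libraries against 59.3, 56.1, 57.2 and 52.7 CPM in PBS libraries (-0.46 ± 0.08, adjusted p = 0.0644). Ifi27l2a had 28.2, 28.9, 26.6 and 29.1 CPM in β-glucan libraries against 36.5, 36.0, 37.2 and 35.4 CPM in PBS libraries (-0.36 ± 0.07, adjusted p = 0.0989). Both genes separated the treatments with little spread within either. Ifi44 and Ifit2, which are induced by type I interferon, differed by -0.91 ± 0.19 and -0.42 ± 0.11. The exception at an unadjusted p under 0.05 was Ifnar2, a receptor subunit, with a log2 fold change of 0.73, and it is among the genes that stood high in β-glucan library 4 of both HSC and MPP, given with the closing observations.

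Genes of antigen presentation by MHC class I had negative log2 fold changes too. All 9 tested were negative, with 5 lower and 0 higher at an unadjusted p under 0.05 and a median of -0.20, and 3 were lower without β-glucan library 2 or PBS library 1. Their summed level overlapped, at 4335 to 4681.5 CPM in β-glucan libraries against 4606 to 5051 CPM in PBS libraries. H2-T22, a nonclassical class I gene, had 34.7, 33.3, 36.8 and 34.9 CPM in β-glucan libraries against 43.0, 52.3, 42.9 and 48.1 CPM in PBS libraries (-0.42 ± 0.09, adjusted p = 0.101). Of 9 MHC class II genes, 2 were lower at that p. H2-Ob, a modulator of peptide loading, had 23.9 to 24.8 CPM in β-glucan libraries against 29.5 to 33.2 CPM in PBS libraries (-0.38 ± 0.08, adjusted p = 0.102), and the list median was -0.12. Class I genes are near-identical in places, and the sources used here do not say how shared reads were counted.

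Lists of T and NK cells and of B cells, which express many interferon response genes, were mostly negative too, with medians of -0.31 and -0.26. In MPP at day 28 these medians were -0.40 and -0.34, where interferon gamma response genes had -0.10 and type I interferon genes -0.18. In HSC at day 7 they were -0.13 and -1.11, where the interferon lists had 0.45 and 0.13. The summed B cell list overlapped between treatments, as given below. Summed over 25 T and NK cell genes, β-glucan libraries had 199, 199, 198 and 189 CPM against 231, 272, 244 and 240.0 CPM in PBS libraries, with no overlap. The part of these cell type lists in the interferon values was not tested.

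The core of the interferon-stimulated response element, spelt GAAA, any 2 bases and GAAA again, was searched in the same promoters on both strands. It was present in 1131 of 32851 promoters (3.44%), in 11 of 21 interferon gamma response genes, 12 of 24 type I interferon genes and 3 of 9 MHC class I genes with a promoter in the set. Of 419 tested genes with a match, 21.0% were lower and 5.97% higher at an unadjusted p under 0.05. Among all 10324 tested genes with a promoter the shares were 9.67% and 9.03%. Of 394 matched genes outside the interferon and MHC lists, 17.8% were lower and 6.34% higher. Within those lists, 18 of 25 members with a match and 13 of 35 without were lower at that p, with medians of -0.32 and -0.14. Promoters of 2 matched members with the smallest p are shown, each the 250 bases before the start with the match in capitals, in both cases on the opposite strand. Gbp2 is chr3:142620413-142620662, plus strand, with the match 59 to 50 bases before the start, and H2-T22 is chr17:36042743-36042992, minus strand, with the match 191 to 182 bases before it.
Gbp2: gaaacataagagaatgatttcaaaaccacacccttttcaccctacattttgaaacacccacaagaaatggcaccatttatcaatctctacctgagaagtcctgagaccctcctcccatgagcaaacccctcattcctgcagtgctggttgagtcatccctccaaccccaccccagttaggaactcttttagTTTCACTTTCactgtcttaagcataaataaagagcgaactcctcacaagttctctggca
H2-T22: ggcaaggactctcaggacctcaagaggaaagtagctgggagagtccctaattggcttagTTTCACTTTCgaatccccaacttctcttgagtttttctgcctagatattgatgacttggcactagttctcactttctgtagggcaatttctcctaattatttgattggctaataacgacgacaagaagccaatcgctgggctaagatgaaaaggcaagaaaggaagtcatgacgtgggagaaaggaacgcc

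**Figure D2:**
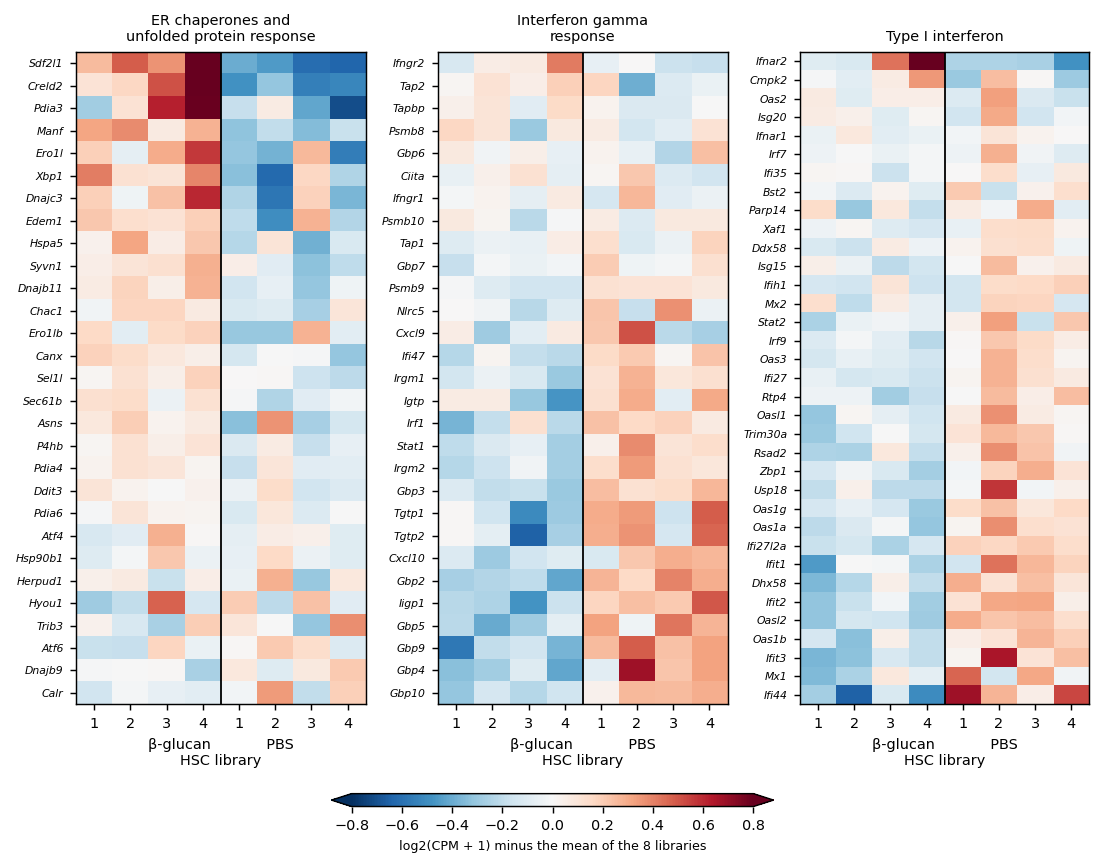
Level of every tested member of 3 gene lists in the 8 HSC libraries, as log2(CPM + 1) minus the mean of the 8 libraries, with β-glucan libraries left of the line and PBS libraries right of it and genes ordered by log2 fold change. Sdf2l1, Creld2 and Pdia3 are deepest in β-glucan library 4, and the lower part of both interferon lists is mostly blue in the β-glucan libraries and mostly red in the PBS libraries.

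Genes of long-term HSC leaned lower after β-glucan, by an amount that moved with PBS libraries 1 and 2. Of 29 tested, 24 were negative, 9 were lower and 0 higher at an unadjusted p under 0.05, and the median was -0.21. The summed level was 898, 871, 938 and 838 CPM in β-glucan libraries against 1303, 909, 1097 and 1200.1 CPM in PBS libraries, with PBS library 2 inside the β-glucan range. Without PBS library 2 the median was -0.36, with 16 lower and 1 higher, without PBS library 1 it was -0.13, with 6 lower, and without β-glucan library 2 it was -0.21, with 5 lower. Kit, the receptor of stem cell factor, had 173, 169, 172 and 150 CPM in β-glucan libraries against 261, 202, 212 and 252 CPM in PBS libraries, with no overlap (-0.48 ± 0.10, adjusted p = 0.0975). Txnip, which binds thioredoxin and is abundant in quiescent HSC, had 119, 110, 192 and 125 CPM in β-glucan libraries against 233, 169, 245 and 197 CPM in PBS libraries, and overlapped (-0.63 ± 0.17, adjusted p = 0.143). The transcription factors Mecom, Hlf and Meis1, which maintain HSC, had log2 fold changes of -0.49 ± 0.17, -0.47 ± 0.17 and -0.47 ± 0.16, and none passed the adjusted test. Ctnnal1, a catenin-like marker of HSC, had 4.65 to 5.73 CPM in β-glucan libraries against 6.08 to 6.88 CPM in PBS libraries (-0.35 ± 0.12, adjusted p = 0.188).

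None of the surface markers used to define HSC passed edgeR's test. Slamf1 had 5.35, 5.79, 5.11 and 4.24 CPM in β-glucan libraries against 6.69, 3.61, 5.22 and 7.80 CPM in PBS libraries, and Procr, the EPCR antigen, 6.21, 5.79, 5.17 and 5.32 CPM against 10.5, 4.63, 6.80 and 8.502 CPM. Both overlapped, and PBS library 2 was the lowest of the 8 for each (-0.18 ± 0.21 and -0.43 ± 0.21). Ly6a, the Sca-1 antigen, differed by -0.38 ± 0.13 and Cd34 by -0.34 ± 0.09, with adjusted p of 0.189 and 0.144. Cd48 and Flt3 had log2 fold changes of -0.13 ± 0.08 and 0.09 ± 0.22. The value of Flt3 changed sign when β-glucan library 3 or 4 was left out. Il1r1, the interleukin 1 receptor, had 4.29 to 5.44 CPM in β-glucan libraries and 3.64 to 6.87 CPM in PBS libraries (-0.23 ± 0.19, adjusted p = 0.575).

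Myeloid genes split by maturation stage. Genes of promyelocytes and granulocyte-monocyte precursors leaned higher, with 13 of 25 higher and 2 lower at an unadjusted p under 0.05 and a median of 0.17. The number higher was 7 without β-glucan library 2 or 4 and 8 without PBS library 1 or 4. The summed level overlapped, at 17342 to 19706 CPM in β-glucan libraries against 14919 to 17999 CPM in PBS libraries. PBS library 2 was above β-glucan library 3. Beside Prtn3, the transcription factor Gfi1, which directs granulocyte differentiation, had 7.52, 5.14, 5.90 and 7.24 CPM in β-glucan libraries against 2.62, 2.30, 4.16 and 3.30 CPM in PBS libraries (1.06 ± 0.20, adjusted p = 0.092). Ms4a3, a marker of granulocyte-monocyte progenitors, had 524, 511, 462 and 512 CPM in β-glucan libraries against 325, 404, 390 and 352 CPM in PBS libraries (0.45 ± 0.09, adjusted p = 0.092), and Ctsg, a granule protease, 244, 236, 226 and 240 CPM against 177, 189, 195 and 193 CPM (0.33 ± 0.07, adjusted p = 0.101). For all 3 genes the lowest β-glucan library was above the highest PBS library. Elane and Cebpe differed by 0.50 ± 0.12 and 0.48 ± 0.11. In the fit of 16 libraries 6 members were called higher and none lower, where 1.94% of all genes were called higher and 2.19% lower.

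Late neutrophil genes leaned the other way. Of 17 tested, 16 were negative, 9 were lower and 0 higher at an unadjusted p under 0.05, and the median was -0.29. Camp, the cathelicidin of specific granules, had 3006, 2833, 3116 and 3072 CPM in β-glucan libraries against 3932, 4285, 3971 and 4078 CPM in PBS libraries, with no overlap (-0.44 ± 0.08, adjusted p = 0.092). Chil3, a chitinase-like protein, had 2175, 2265, 2884 and 2388 CPM in β-glucan libraries against 2894, 4435, 3222 and 2971 CPM in PBS libraries (-0.48 ± 0.15, adjusted p = 0.163). Retnlg and Itgb2l, a resistin-like protein and an integrin subunit of neutrophils, differed by -0.29 ± 0.09 and -0.32 ± 0.10. The summed level was 68005 to 77610.0 CPM in β-glucan libraries against 79029 to 96795 CPM in PBS libraries, without overlap. The number of members lower at that p was 4 without β-glucan library 1.

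Receptors and signalling genes of colony-stimulating factors, which drive myelopoiesis, were mostly positive. Of 17 tested, 15 were positive, 7 were higher and 1 lower at an unadjusted p under 0.05, and the median was 0.17, with 4 higher without β-glucan library 4. Il3ra, a subunit of the interleukin 3 receptor, had 2.66, 2.41, 3.75 and 4.33 CPM in β-glucan libraries against 2.17, 1.77, 2.17 and 1.47 CPM in PBS libraries (0.79 ± 0.22, adjusted p = 0.145). Csf2ra, the alpha subunit of the GM-CSF receptor, had 9.39, 9.24, 8.499 and 15.7 CPM in β-glucan libraries against 7.63, 5.70, 7.92 and 7.44 CPM in PBS libraries (0.58 ± 0.20, adjusted p = 0.187). Neither overlapped, and β-glucan library 4 was the highest for both. Csf1, which encodes M-CSF, and the kinase Pim1 differed by 0.93 ± 0.29 and 0.49 ± 0.17. The shared beta subunit Csf2rb differed by 0.18 ± 0.08 (adjusted p = 0.283).

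Genes of β-glucan recognition and innate sensing showed no shared direction. Of 31 genes of dectin-1, Toll-like receptor and IL-1 signalling, 2 were higher and 4 lower at an unadjusted p under 0.05, with a median of -0.05, and 1 and 2 were lower without β-glucan library 1 and 2. Clec7a itself had 26.5, 33.0, 31.2 and 28.7 CPM in β-glucan libraries against 34.9, 52.6, 36.6 and 36.4 CPM in PBS libraries, with no overlap and with PBS library 2 standing above the other libraries (-0.43 ± 0.13, adjusted p = 0.171). Prkcd, a kinase of that pathway, differed by 0.51 ± 0.18, Tlr7, a sensor of RNA, by -0.33 ± 0.13 and Il1rap, the accessory chain of the IL-1 receptor, by -0.27 ± 0.11. Monocyte and macrophage genes had a median of -0.08, with 1 of 20 higher and 3 lower. Among mast cell, basophil and eosinophil genes 4 of 18 were higher and 1 lower, with 2 higher without β-glucan library 4 or PBS library 3 or 4. The basophil protease Mcpt8 had 79.5, 60.8, 77.9 and 73.1 CPM in β-glucan libraries against 41.3, 51.1, 48.4 and 51.9 CPM in PBS libraries (0.60 ± 0.10, adjusted p = 0.0748).

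Lymphoid genes were mostly lower. Of 24 pre-B and B cell genes, 22 were negative, 14 were lower and 1 higher at an unadjusted p under 0.05, and the median was -0.26. Dntt, the DNA polymerase that adds bases at antigen receptor joints, had 43.6, 37.5, 48.8 and 34.8 CPM in β-glucan libraries against 58.4, 61.7, 65.9 and 64.7 CPM in PBS libraries (-0.61 ± 0.11, adjusted p = 0.0748). Ms4a1, the CD20 antigen of B cells, had 38.6, 43.0, 53.9 and 44.5 CPM in β-glucan libraries against 63.5, 91.1, 62.5 and 68.3 CPM in PBS libraries (-0.66 ± 0.14, adjusted p = 0.0978). Neither overlapped, and Vpreb3 differed by -0.37 ± 0.08. The summed level of the list overlapped, at 3175 to 3770.0 CPM in β-glucan libraries against 3385 to 4855 CPM in PBS libraries.

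Of 25 T and NK cell genes, 24 were negative and 13 lower at an unadjusted p under 0.05, with a median of -0.31. Cd3e, a chain of the T cell receptor complex, had 11.8, 11.8, 11.4 and 11.5 CPM in β-glucan libraries against 14.8, 15.3, 16.7 and 15.7 CPM in PBS libraries (-0.43 ± 0.09, adjusted p = 0.101). Ncr1, an activating receptor of NK cells, had 2.63, 2.16, 3.63 and 1.89 CPM in β-glucan libraries against 5.16, 6.81, 5.06 and 4.001 CPM in PBS libraries (-1.03 ± 0.22, adjusted p = 0.106). Klrb1c, the NK1.1 antigen, and the chemokine Ccl5 differed by -0.56 ± 0.13 and -0.40 ± 0.10. edgeR called none of the 25 genes, while the DESeq2 Wald test called 5 lower and limma voom 4. Of all genes, DESeq2 called 1.83% lower and limma voom 2.12%. Dendritic cell genes had a median of -0.15, with 2 of 16 higher and 2 lower.

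Erythroid genes had the highest summed level of the cell type lists and were mixed. Of 24 tested, 17 were negative, 3 were higher and 1 lower at an unadjusted p under 0.05. The summed level was 166000.0 to 181960.0 CPM in β-glucan libraries against 187580.0 to 216250.0 CPM in PBS libraries, with no overlap. Hbb-bs, an adult beta globin, had 20817, 19343, 23281 and 20359 CPM in β-glucan libraries against 23856, 25197, 26148 and 23919 CPM in PBS libraries (-0.24 ± 0.11, adjusted p = 0.278). Klf1, the erythroid transcription factor, was on the other side, at 88.9, 97.2, 99.0 and 128 CPM in β-glucan libraries against 74.9, 66.5, 58.3 and 47.1 CPM in PBS libraries (0.74 ± 0.15, adjusted p = 0.092), and Sptb, the beta spectrin of red cells, differed by 0.49 ± 0.11. In MPP Klf1 had 37.7, 28.8, 67.4 and 66.8 CPM in β-glucan libraries against 12.7 to 18.6 CPM in PBS libraries. β-glucan libraries 3 and 4 were its highest in both cell types, as for the genes given with the closing observations. The part of that pattern in the values of Klf1 was not tested. The list median of -0.15 was 0.01 without PBS library 2. Of 24 megakaryocyte and platelet genes, 0 were higher and 2 lower, with a median of 0.09 that was -0.22 and -0.08 without β-glucan library 2 and PBS library 2.

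Genes of marrow stroma and endothelium had the highest list median, 0.51. Of 24 tested, 19 were positive, 10 were higher and 3 lower at an unadjusted p under 0.05, and 16 were higher without PBS library 1. Cxcl12, the chemokine that holds HSC in the marrow, had 189, 187, 146 and 136 CPM in β-glucan libraries against 123, 121, 96.0 and 95.7 CPM in PBS libraries (0.60 ± 0.13, adjusted p = 0.106). Kitl, the stem cell factor of niche cells, had 8.47, 9.32, 5.72 and 6.50 CPM in β-glucan libraries against 5.36, 4.57, 3.91 and 4.37 CPM in PBS libraries (0.72 ± 0.17, adjusted p = 0.134). Flt4, a receptor of sinusoidal and lymphatic endothelium, had 1.28, 0.957, 2.33 and 2.20 CPM in β-glucan libraries against 0.649, 0.524, 0.559 and 0.7002 CPM in PBS libraries (1.47 ± 0.30, adjusted p = 0.0978). These 3 genes and Igfbp5 (0.55 ± 0.13) did not overlap between treatments. Emcn and Angpt1, which HSC express too, were on the lower side with -0.60 and -0.61. Over the whole list the summed level overlapped, at 743 to 851 CPM in β-glucan libraries against 601 to 801 CPM in PBS libraries. The list stood beside Lipg, Tspan7, Adamts5, Prelp, Col6a1 and Gpr182 above, and its part in their values was not tested.

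Immediate early genes, transcription factors switched on within minutes of stimulation or tissue handling, included Fos. It had 13.3, 13.0, 17.6 and 16.2 CPM in β-glucan libraries against 7.11, 9.54, 8.76 and 5.73 CPM in PBS libraries, with no overlap (0.95 ± 0.17, adjusted p = 0.0748). Jun, Junb and Ier2 differed by 0.71 ± 0.18, 1.19 ± 0.31 and 1.31 ± 0.28. Junb had 4.22, 3.64, 5.08 and 10.5 CPM in β-glucan libraries against 3.19, 2.44, 2.55 and 2.03 CPM in PBS libraries. Ier2 had 12.8, 14.1, 20.4 and 34.4 CPM against 10.2, 6.28, 9.01 and 7.34 CPM. β-glucan library 4 was the highest for both, and Ier2 is among the genes that stood high in that library of both HSC and MPP. Over the list of 20 tested, 5 were higher and 2 lower at an unadjusted p under 0.05, with a median of 0.10. The median was 0.16 without β-glucan library 1, 0.20 without PBS library 3 and 0.04 with the correction for GC content described below. Of 18 heat shock genes, 2 were higher and 1 lower, led by the cochaperone Hsph1 (0.36 ± 0.08, adjusted p = 0.106).

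Cell cycle genes had list medians near 0, which were higher without PBS library 2. Of 41 DNA replication genes, 7 were higher and 0 lower at an unadjusted p under 0.05, and of 34 mitosis genes 8 were higher and 0 lower, with medians of 0.02 and 0.03 that changed sign without PBS library 1 or 4, the replication median also without PBS library 3. Without PBS library 2 the medians were 0.10 and 0.14, and the counts higher were 11 and 13. Of mitosis genes 4 and 5 were higher without β-glucan library 4 and PBS library 4. Summed over the replication list, β-glucan libraries had 6491, 6904, 6434 and 6711 CPM and PBS libraries 5949, 8035, 5824 and 6144 CPM. The mitosis sums were 4152, 4402, 4502 and 4379 CPM in β-glucan libraries and 3858, 5202, 3994 and 4013.5 CPM in PBS libraries. PBS library 2 was the highest for both lists. Mki67, a marker of cycling cells, had 148, 153, 221 and 167 CPM in β-glucan libraries against 131, 131, 142 and 137 CPM in PBS libraries (0.35 ± 0.12, adjusted p = 0.183). Cdc20, an activator of the anaphase-promoting complex, had 45.6 to 51.4 CPM in β-glucan libraries against 36.3 to 40.5 CPM in PBS libraries (0.30 ± 0.08, adjusted p = 0.141). Both separated the treatments.

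Of 74 nuclear genes of oxidative phosphorylation, 63 were positive but 6 were higher and 1 lower at an unadjusted p under 0.05, with a median of 0.10. Without β-glucan library 3 the median was 0.19 with 39 higher, and 1 to 3 were higher without β-glucan library 1, 2 or 4 or PBS library 3 or 4. The highest value was that of Cox5a, a subunit of cytochrome oxidase, with 13.5, 17.5, 34.9 and 70.8 CPM in β-glucan libraries against 12.4, 10.8, 13.0 and 7.00 CPM in PBS libraries (1.66 ± 0.44, adjusted p = 0.141). β-glucan libraries 3 and 4 were high and β-glucan library 1 was close to the highest PBS library. Genes of the mitochondrial genome had a median of -0.04, positive without β-glucan library 1 or 2 or PBS library 1 or 3, with 0 of 13 past that p in either direction. Without β-glucan library 3 the median was -0.14 with 6 lower at that p, and without both PBS library 2 and β-glucan library 3 it was -0.20 with 7 lower, 3 of them called. In that last setting 1.82% of 16103 genes were called lower. Mitochondrial genes took their highest share of counts in β-glucan library 3, 1.463%, and their lowest in PBS library 2, 0.9653%, among the 8 libraries. Glycolysis genes had a median of 0.03 and cholesterol synthesis genes one of -0.13, with 3 higher and 1 lower of 22 and 2 higher and 6 lower of 23. Of the cholesterol genes 2 were lower without β-glucan library 1, 2 or 4 or PBS library 1 or 2.

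Small list medians moved by more than 1.5 times with 1 library left out. They ran from -0.14 to -0.07 for MHC class II genes, -0.13 to -0.03 for monocyte genes, 0.02 to 0.13 for mast cell, basophil and eosinophil genes, and -0.16 to -0.04 for plasma cell genes. They ran from 0.05 to 0.09 for heat shock genes, -0.09 to -0.04 for dectin-1 and Toll-like receptor genes, -0.11 to -0.06 for cholesterol genes and 0.01 to 0.05 for glycolysis genes.

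**Figure D3:**
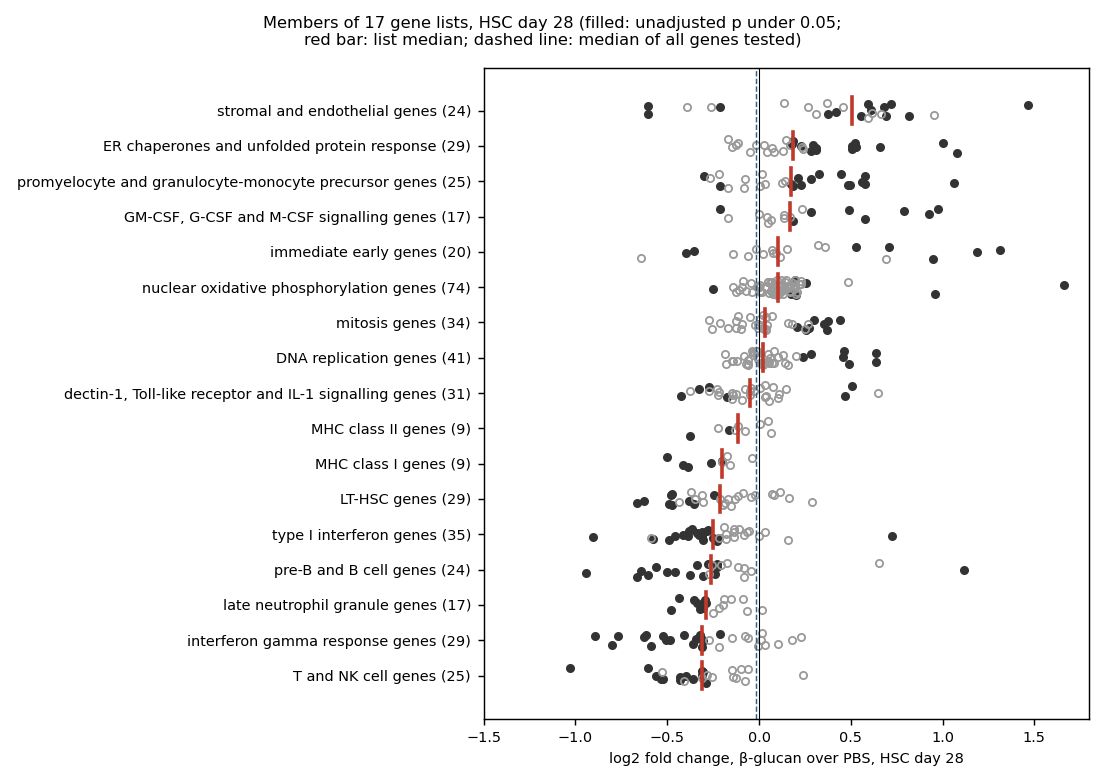
Log2 fold change, β-glucan over PBS, of every tested member of 17 gene lists in HSC at day 28, with filled points for members at an unadjusted p under 0.05, a red bar for each list median and a dashed line for the median of all genes tested (-0.02). The stromal, ER and promyelocyte lists have their filled points mostly right of 0, and the interferon, lymphoid, late neutrophil and HSC lists mostly left of it.

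MPP from mice of the same treatments and day carry their own PBS libraries, and the difference of the β-glucan effect, HSC minus MPP, was tested over the 16 libraries. The test treats them as independent, although HSC and MPP libraries of the same treatment and number correlated at 0.0496 to 0.385 in their deviations from the group means. Of 16691 genes, 1 was called (0.00599%), and 1033 (6.19%) had an unadjusted p under 0.05. The called gene was Igkv4-91, which was also called, with 1 other gene, when libraries of the same treatment and number were joined as a block. In MPP it had 13.0, 0.733, 3.28 and 1.61 CPM in β-glucan libraries against 18.7, 21.6, 22.8 and 51.1 CPM in PBS libraries, so that it was lower after β-glucan in MPP and higher in HSC, with a difference of 6.64 ± 0.84 (log2, adjusted p = 0.0047). The HSC β-glucan and MPP PBS libraries were high, as was MPP β-glucan library 1.

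The other 5 called genes were on the same side in MPP. Igkv17-127 had 37.5 to 69.7 CPM in β-glucan MPP libraries against 14.6 to 26.3 CPM in PBS MPP libraries, and its fold change in MPP was 1.56 ± 0.19 (log2, adjusted p = 0.0032). Sdf2l1 had 82.4, 71.2, 126 and 155 CPM in β-glucan MPP libraries against 35.8, 43.0, 40.6 and 43.1 CPM in PBS MPP libraries and rose by 1.42 ± 0.20 (adjusted p = 0.00459). β-glucan library 4 was the highest for Sdf2l1 in both cell types, as for the genes given with the closing observations. The part of that pattern in its rise was not tested. Lipg had 8.35 to 10.1 CPM in β-glucan MPP libraries against 2.77 to 4.36 CPM in PBS MPP libraries and rose by 1.26 ± 0.15 (adjusted p = 0.00234). Tspan7 and Adamts5 differed by 0.48 ± 0.26 and 0.72 ± 0.28 in MPP, and neither passed the test there. For these 5 genes the difference HSC minus MPP had adjusted p of 0.677 to 0.958. The difference was 1.82 ± 0.47 for Igkv17-127, 1.04 ± 0.34 for Tspan7 and 0.86 ± 0.35 for Adamts5. Each of these had an unadjusted p under 0.05 in edgeR's test, as had 6.19% of all genes. Lipg and Sdf2l1 had differences of 0.13 ± 0.25 and -0.33 ± 0.27.

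The lists were set side by side in the same way. The ER list had a median of 0.18 in HSC and 0.16 in MPP, and the late neutrophil list -0.29 and -0.33. Promyelocyte genes had 0.17 in HSC and 0.07 in MPP. Interferon gamma response genes had -0.31 in HSC and -0.10 in MPP, and for 5 of them the difference HSC minus MPP had an unadjusted p under 0.05, with none called, where 6.19% of all genes had such a p. Pre-B and B cell genes had -0.26 in HSC and -0.34 in MPP, and 10 of 24 had a difference at that p, with a median difference of 0.18 and none called. Gbp2 and Gbp3 were among the 5 interferon genes, with differences of -0.38 and -0.36. Long-term HSC genes had -0.21 in HSC and -0.06 in MPP. Kit differed by -0.48 ± 0.10 in HSC and -0.10 in MPP, and the difference of -0.38 had an adjusted p of 0.751.

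At day 7 and after 5-FU the same lists had other values, and those differences were not tested. The libraries of those sets also differed in RNA of mature cells. Haemoglobin genes took 1.69 to 2.29% of counts in β-glucan and 5.39 to 6.81% in PBS libraries at day 7, against 14.8 to 18.2% at day 28. The late neutrophil list took 16.33 to 21.85% after 5-FU, against 6.95 to 8.81% at day 28. Interferon gamma response genes had a median of 0.45 in HSC at day 7 and 0.08 after 5-FU. Late neutrophil genes had 0.74 and -0.05, and promyelocyte genes 0.66 and -0.02. The ER list had 0.18 at day 7 and 0.08 after 5-FU, where Sdf2l1 had log2 fold changes of 0.61 ± 0.15 and 0.31 ± 0.11. Lipg had 2.42 ± 0.35 at day 7 and -0.26 ± 0.18 after 5-FU. Igkv4-91 was on the lower side in both sets, at -1.81 ± 0.52 and -3.74 ± 1.02.

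**Figure D4:**
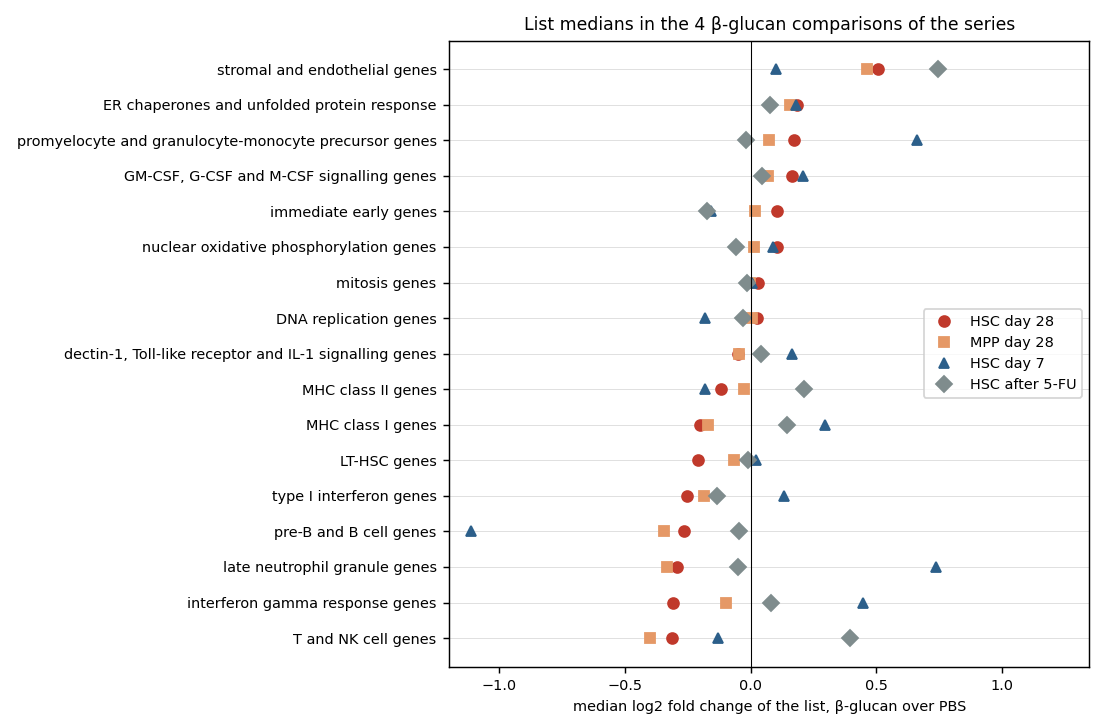
Median log2 fold change, β-glucan over PBS, of 17 gene lists in HSC at day 28 (circles), MPP at day 28 (squares), HSC at day 7 (triangles) and HSC after 5-FU (diamonds). The interferon gamma and late neutrophil lists are below 0 in both day 28 sets and at 0.45 and 0.74 at day 7, while the ER list is at 0.08 to 0.18 in all 4 sets.

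Base composition differed between libraries and followed the treatments only in part. Over 8702 genes of mean log2 CPM above 3, the log2 fold change correlated with the GC content of the longest GENCODE M21 transcript (Spearman's rho 0.28 in HSC and 0.10 in MPP, across genes, which share libraries and are not independent). The median log2 fold change was -0.09 for 521 genes under 40% GC and 0.28 for 140 genes of 60 to 65%. The level of a library relative to the mean of the 8 also correlated with GC content. Spearman's rho was 0.24, 0.23, -0.12 and 0.33 in β-glucan libraries 1 to 4, and 0.05, -0.27, -0.22 and -0.01 in PBS libraries. β-glucan library 3 thus lay among the PBS libraries. In the class of 60 to 65% β-glucan library 4 stood at 0.25 and PBS library 2 at -0.32 relative to the mean of the 8 libraries. When this shift was removed from each library, 13 genes were called (0.0811%), 12 higher (0.0749%) and 1 lower (0.00624%), among them the 6 above, an alternative chosen after the data were seen. The added ones were Manf, Saa3, Dmkn, Ms4a3, Prelp and Gpr182 on the higher side and Vpreb1 on the lower. List medians then were 0.19 for ER genes, -0.27 and -0.24 for the 2 interferon lists and -0.26 for late neutrophil genes.

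**Figure D5:**
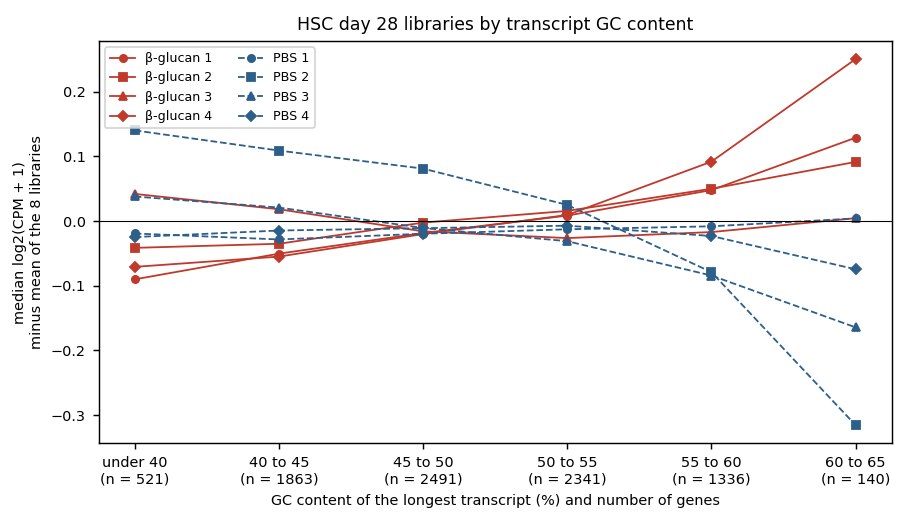
Median level of genes by transcript GC content in each HSC day 28 library, as log2(CPM + 1) minus the mean of the 8 libraries, for classes of at least 20 genes, with β-glucan libraries in solid red and PBS libraries in dashed blue. Above 60% GC β-glucan library 4 is the highest at 0.25 and PBS library 2 the lowest at -0.32, and both classes under 45% show PBS library 2 highest.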

How the data were processed

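The authors deposited raw counts per gene in 3 tables of 45706 identifiers. Demultiplexing used bcl2fastq 1.8.4 and counting used featureCounts on mm10, per the submitters' processing notes. For the aligner, the sources used here give no name. Per the labels' protocols, RNA came from RNeasy Plus Micro kits and libraries from a SMARTer Ultra protocol, which does not mark strand, so overlapping and antisense genes cannot be told apart. Symbols from GENCODE M21 matched 45143 identifiers. Columns give initials and a number but no day. The table that holds MPP columns was read as day 28, and P and G as PBS and β-glucan. The title of MPP PBS library 1 was followed over its cell type tag.

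The main test was edgeR 4.0.16 (R 4.3.3) with its quasi-likelihood fit on the 8 HSC day 28 libraries, a filterByExpr minimum count of 10, TMM scaling and Benjamini-Hochberg adjustment over all genes tested, at a threshold of 0.05. The standard error is the log2 fold change divided by the square root of F. Levels are CPM on TMM-scaled totals, set separately for HSC and MPP. The difference HSC minus MPP was tested in 1 fit of 16 libraries. Alternatives were DESeq2 1.42.0 size factors and Wald test, no filter, a mean CPM of at least 5, limma 3.58.1 voom with quality weights, the replicate number as a block, 1 fit of 16 libraries, each library left out, and 2 libraries left out. A GC content correction was added after the data were seen. Tests were tried on simulated counts first. Figures used Python 3.11.15 with matplotlib 3.10.9.

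Named genes were those called, the 10 of smallest p in each direction among non-overlapping genes whose mean log2 CPM reached 2, up to 4 members of smallest p per list, and a few of prior interest. Further list members given with a fold change only, and the GC and single-library values, were chosen after values were seen. The comparison, lists and members were chosen with earlier results of these data known. No 2 replicates agreed within sampling noise (chi-square per gene of 10.2 to 51.6 over 12 pairs).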

Additional observations from a re-analysis of the deposited data

Results flagged for a closer look

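The library farthest from its group was looked for in 294 groups of 4 libraries, a search that chance alone flags in about 1 of 20 groups. It flagged 16, about as many as that rate gives, and all are listed here. In CPM, PBS library 2 stood apart for Ifi203 at 25.25 (others 29.93 to 30.27), Retnlg at 1823 (1536 to 1575), Clec7a at 52.6 (34.9 to 36.63), Adgre1 at 106.1 (69.05 to 74.53) and H2-Oa at 9.485 (12.2 to 12.74). PBS library 4 was low for Prelp at 2.001 (2.502 to 2.519) and Igfbp5 at 6.935 (7.674 to 7.71). PBS library 3 was high for Slc16a1 at 77.86 (51.85 to 53.78) and low for Ndufb6 at 30.98 (34.04 to 34.62).

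Among β-glucan libraries, library 3 was low for Pim1 at 127.7 (209.9 to 211.6) and high for the mitochondrial genes mt-Nd3 at 121 (82.3 to 85.55) and mt-Co3 at 3860 (2223 to 2330). Its mitochondrial share of counts was 1.463% against 1.028 to 1.065% in the others. Library 4 was high for Csf2ra at 15.72 (8.499 to 9.39). Library 2 was high for H2-Aa at 303.2 (286 to 288) and in its total of 35860568 counts (31931097 to 32272760).

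The effect of β-glucan on Igkv4-91 differed between HSC and MPP by 6.635 on the log2 scale (edgeR, adjusted p = 0.0047), higher in 4 of 4 HSC β-glucan libraries and lower in 4 of 4 MPP β-glucan libraries than in all PBS libraries of the same cell type.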

How the results depend on the processing

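The 6 genes called in HSC became 69 at an adjusted p under 0.1, 182 without the count filter, 589 with the DESeq2 Wald test, 598 with limma voom, 14 with the replicate block, 690 in the fit of 16 libraries, 669 without PBS library 2 and β-glucan library 3, and 13 with the GC correction. The 6 genes were among the calls in each of these. DESeq2 size factors gave 6 calls and the stricter filter 8. Leaving out 1 library gave 1 to 51. The gene called for HSC minus MPP was called under all alternatives. The count there was 2 at an adjusted p under 0.1, without the filter, with DESeq2 and with the block, 34 without those 2 libraries, 1 to 3 with 1 library left out, and 1 under the others. Replicate numbers were not taken to pair the treatments in the main test. Same-numbered β-glucan and PBS libraries of HSC correlated at 0.132, 0.265, 0.265 and -0.0868 for numbers 1 to 4. These correlations do not decide whether the numbers pair the libraries, and the replicate block above gives the calls if they do. HSC and MPP libraries of the same treatment and number correlated at 0.0496 to 0.385, 6 of 8 HSC libraries matched their own number best, and the block for HSC minus MPP joins these. Flt3 (0.09) ran from -0.10 to 0.24 with 1 library left out and changed sign to -0.05 without β-glucan library 3, -0.10 without β-glucan library 4 and -0.0031 without both PBS library 2 and β-glucan library 3, and Ddx3y to 0.0245 with the GC correction. The causes were not tested. Depth limits the genes of a few CPM, Tspan7 and Adamts5 among them, which the stricter filter left out.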

Other observations

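Some genes stood high in the libraries numbered 4 of the β-glucan group in both HSC and MPP, a set looked for after the data were seen. Of 8717 genes of mean log2 CPM above 3, 76 in HSC and 56 in MPP were more than 0.7 (log2) above the mean of the other β-glucan libraries in library 4, and 30 were so in both. The other libraries had 0 to 4 such genes in both cell types. On the low side, β-glucan libraries 1 and 2 had 28 and 26 genes in both, and the others 2 to 6. The 30 genes included Cox5a and Cyc1 of the respiratory chain, Ddost of the oligosaccharyltransferase, the histone genes H2afx and Hist1h2ao, the transcription factor Lyl1, Ier2 and Ifnar2. For each of the 30 genes β-glucan library 3 was the second highest β-glucan library in both HSC and MPP. Cox5a in MPP had 12.2, 8.06, 27.2 and 39.1 CPM in β-glucan libraries and 5.98, 5.96, 5.23 and 6.04 CPM in PBS libraries, with β-glucan library 3 second to library 4 as in HSC. H2afx in HSC had 18.3, 18.2, 44.0 and 116 CPM in β-glucan libraries and 16.1, 10.4, 17.5 and 12.3 CPM in PBS libraries. Whether libraries of the same number came from the same mice is not given in the labels, and the source of the pattern was not tested.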
